A study of Mus musculus with 75 samples.

Results

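The genes described here are 10 acid-base genes of the kidney's intercalated cells: *Atp6v1b1*, *Atp6v0a4*, *Atp6v1g3*, *Atp6v0d2*, *Slc4a1*, *Slc26a4*, *Slc4a9*, *Rhcg*, *Car2*, and *Foxi1*. They were chosen by symbol, and all 10 were found among the 32245 genes of the deposited count table. All 10 also passed the filter on low counts in each of the 3 arms of the study, where 9579 to 11916 genes were tested.

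Intercalated cells are the acid-base cells of the collecting duct and the connecting tubule. Carbonic anhydrase 2 turns carbon dioxide and water into bicarbonate and protons inside the cell. Type A cells secrete the protons into the urine through a V-type proton pump built from kidney-enriched subunits and return bicarbonate to the blood through the exchanger AE1, encoded by *Slc4a1*, while type B cells secrete bicarbonate through pendrin, encoded by *Slc26a4*. The forkhead factor FOXI1 is required for the intercalated cell identity, and inherited loss of several of these genes is known to cause distal renal tubular acidosis.

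In unilateral ureter obstruction (UUO) 1 ureter is ligated, and the kidney of the other side (contralateral, CL) is set against the obstructed one. Whole kidneys of adult mice of both sexes were taken 3 days after UUO, and all mice received carprofen for pain. In the ABTAA arm, wild-type mice received either control IgG (8 CL and 8 UUO libraries) or ABT (7 and 7), which is the antibody ABTAA that binds angiopoietin-2 and activates the endothelial receptor TIE2. In the *Veptp* arm, VeKO mice (6 CL and 8 UUO) carried floxed *Veptp* (gene symbol *Ptprb*) deleted in endothelium by tamoxifen-induced *Cdh5*-CreERT2, and their VeWT littermates (7 and 8) were wt/lox mice with the same Cre that were not induced, so that induction and deletion cannot be told apart. In the *Pdgfb* arm, PbKO mice (4 and 4) carried floxed *Pdgfb* deleted in the whole body by tamoxifen-induced *Actb*-CreERT2. PbWT littermates (4 and 4) were wt/lox or lox/lox mice without Cre, so that Cre and deletion cannot be told apart. The PbWT CL group includes 2 kidneys from sham surgery, which cannot be told from the rest by their labels.

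Libraries held 172827 to 2341800 counts in all (median 757897). Names of 30 libraries, all in the ABTAA and *Veptp* arms, contain the character _ (dashed names) and those of the other 45 do not; the labels do not say what this marks, and both forms were present in all 8 groups of those arms. In the *Veptp* arm the 16 dashed libraries held 960023 to 2341800 counts and the 13 plain ones 178137 to 858624. In 24 libraries, 22 plain and 2 dashed, both *Xist* and the summed Y-linked genes reached 10 counts; these included all 4 PbKO UUO and none of the 4 PbKO CL libraries. Of the targeted genes, *Pdgfb* stood at 34.0 to 41.4 CPM in PbKO and 44.1 to 58.9 CPM in PbWT UUO kidneys, without overlap (-0.47 ± 0.21 on the log2 scale, adjusted p = 0.125 by edgeR), but in CL kidneys its median was 17.6 CPM in PbKO and 8.73 CPM in PbWT (0.78 ± 0.33, adjusted p = 1 by edgeR). Its response to UUO was smaller in PbKO, by -1.26 ± 0.39 (adjusted p = 0.046 by edgeR). *Ptprb* had lower medians in VeKO than in VeWT kidneys, at 34.2 and 62.4 CPM in CL (-0.63 ± 0.36) and 28.5 and 42.5 CPM in UUO (-0.69 ± 0.33, unadjusted p = 0.0433 and adjusted p = 1 by edgeR), with overlapping ranges in both. In VeKO CL replicate 2 the injury marker *Havcr1* stood at 247 CPM, while the group's median was 9.32 CPM; without this library 6 of the 10 genes fell with UUO in VeKO kidneys (4.62% of all genes) and 5 with it.

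The first question was how UUO changed these genes in each of the 6 genotypes or treatments. All 10 genes had lower estimates in UUO than in CL kidneys in all 6 comparisons. *Atp6v1b1*, *Slc4a1*, and *Rhcg* fell in each of them, with median changes of -1.08, -2.38, and -1.50 on the log2 scale. Not all of these calls held under other settings. In PbKO kidneys that of *Rhcg* was lost with DESeq2 and without TMM scaling, that of *Atp6v1b1* without TMM scaling, and none of the 10 genes was called without CL replicate 3, UUO replicate 2, or UUO replicate 4, where 0.857% to 1.25% of all genes still fell. In libraries with plain names alone all 3 calls were lost in VeKO kidneys, those of *Atp6v1b1* and *Slc4a1* in VeWT kidneys, and that of *Slc4a1* in ABT kidneys. Without the *Veptp* libraries numbered 3, 4, 7, and 8 all 3 were lost in VeKO kidneys and that of *Atp6v1b1* in VeWT kidneys, with 0.127% and 2.71% of all genes called lower. In PbWT kidneys that of *Atp6v1b1* was lost without the libraries that held both *Xist* and Y-linked counts. *Slc26a4* fell in 5 of 6 (median -1.23), *Atp6v0d2* in 4 (-0.68), *Atp6v0a4* and *Car2* in 3 each (-0.61 and -0.54), *Atp6v1g3* in 2 (-0.74), and *Slc4a9* and *Foxi1* in 1 each (-0.56 for both). As these are whole kidneys, fewer intercalated cells and less RNA per cell cannot be told apart.

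By comparison, 8 of the 10 genes fell in IgG-treated mice (edgeR's quasi-likelihood test, adjusted p under 0.05), where 18.2% of all genes tested fell. In ABT-treated mice 7 of 10 fell, against 12.5% of all genes. In VeWT kidneys 4 of 10 fell (8.38% of all genes) and in VeKO kidneys 5 of 10 (3.47%). In PbWT kidneys all 10 fell (19.4%), and in PbKO kidneys 3 of 10 (2.42%). The PbWT calls of *Foxi1* and *Atp6v0d2* were lost with DESeq2 and without TMM scaling, which left 8 of 10. Without TMM scaling 1153 of 10923 genes tested fell in PbWT kidneys. The call of *Foxi1* was also lost with no filter on low counts, which left 9. The median log2 fold change of the 10 genes was -1.11 (IgG), -0.84 (ABT), -0.68 (VeWT), -0.85 (VeKO), -1.06 (PbWT), and -0.48 (PbKO), while the median over all genes tested lay between -0.01 and 0.04. Without TMM scaling the median over all genes shifted to between 0.08 and 0.41, the share of lower genes among all calls moved from 38% to 52.7% down to 20.6% to 33.3%, and the median of the 10 genes stayed below 0 at -0.39 to -0.91.

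**Figure D1:**
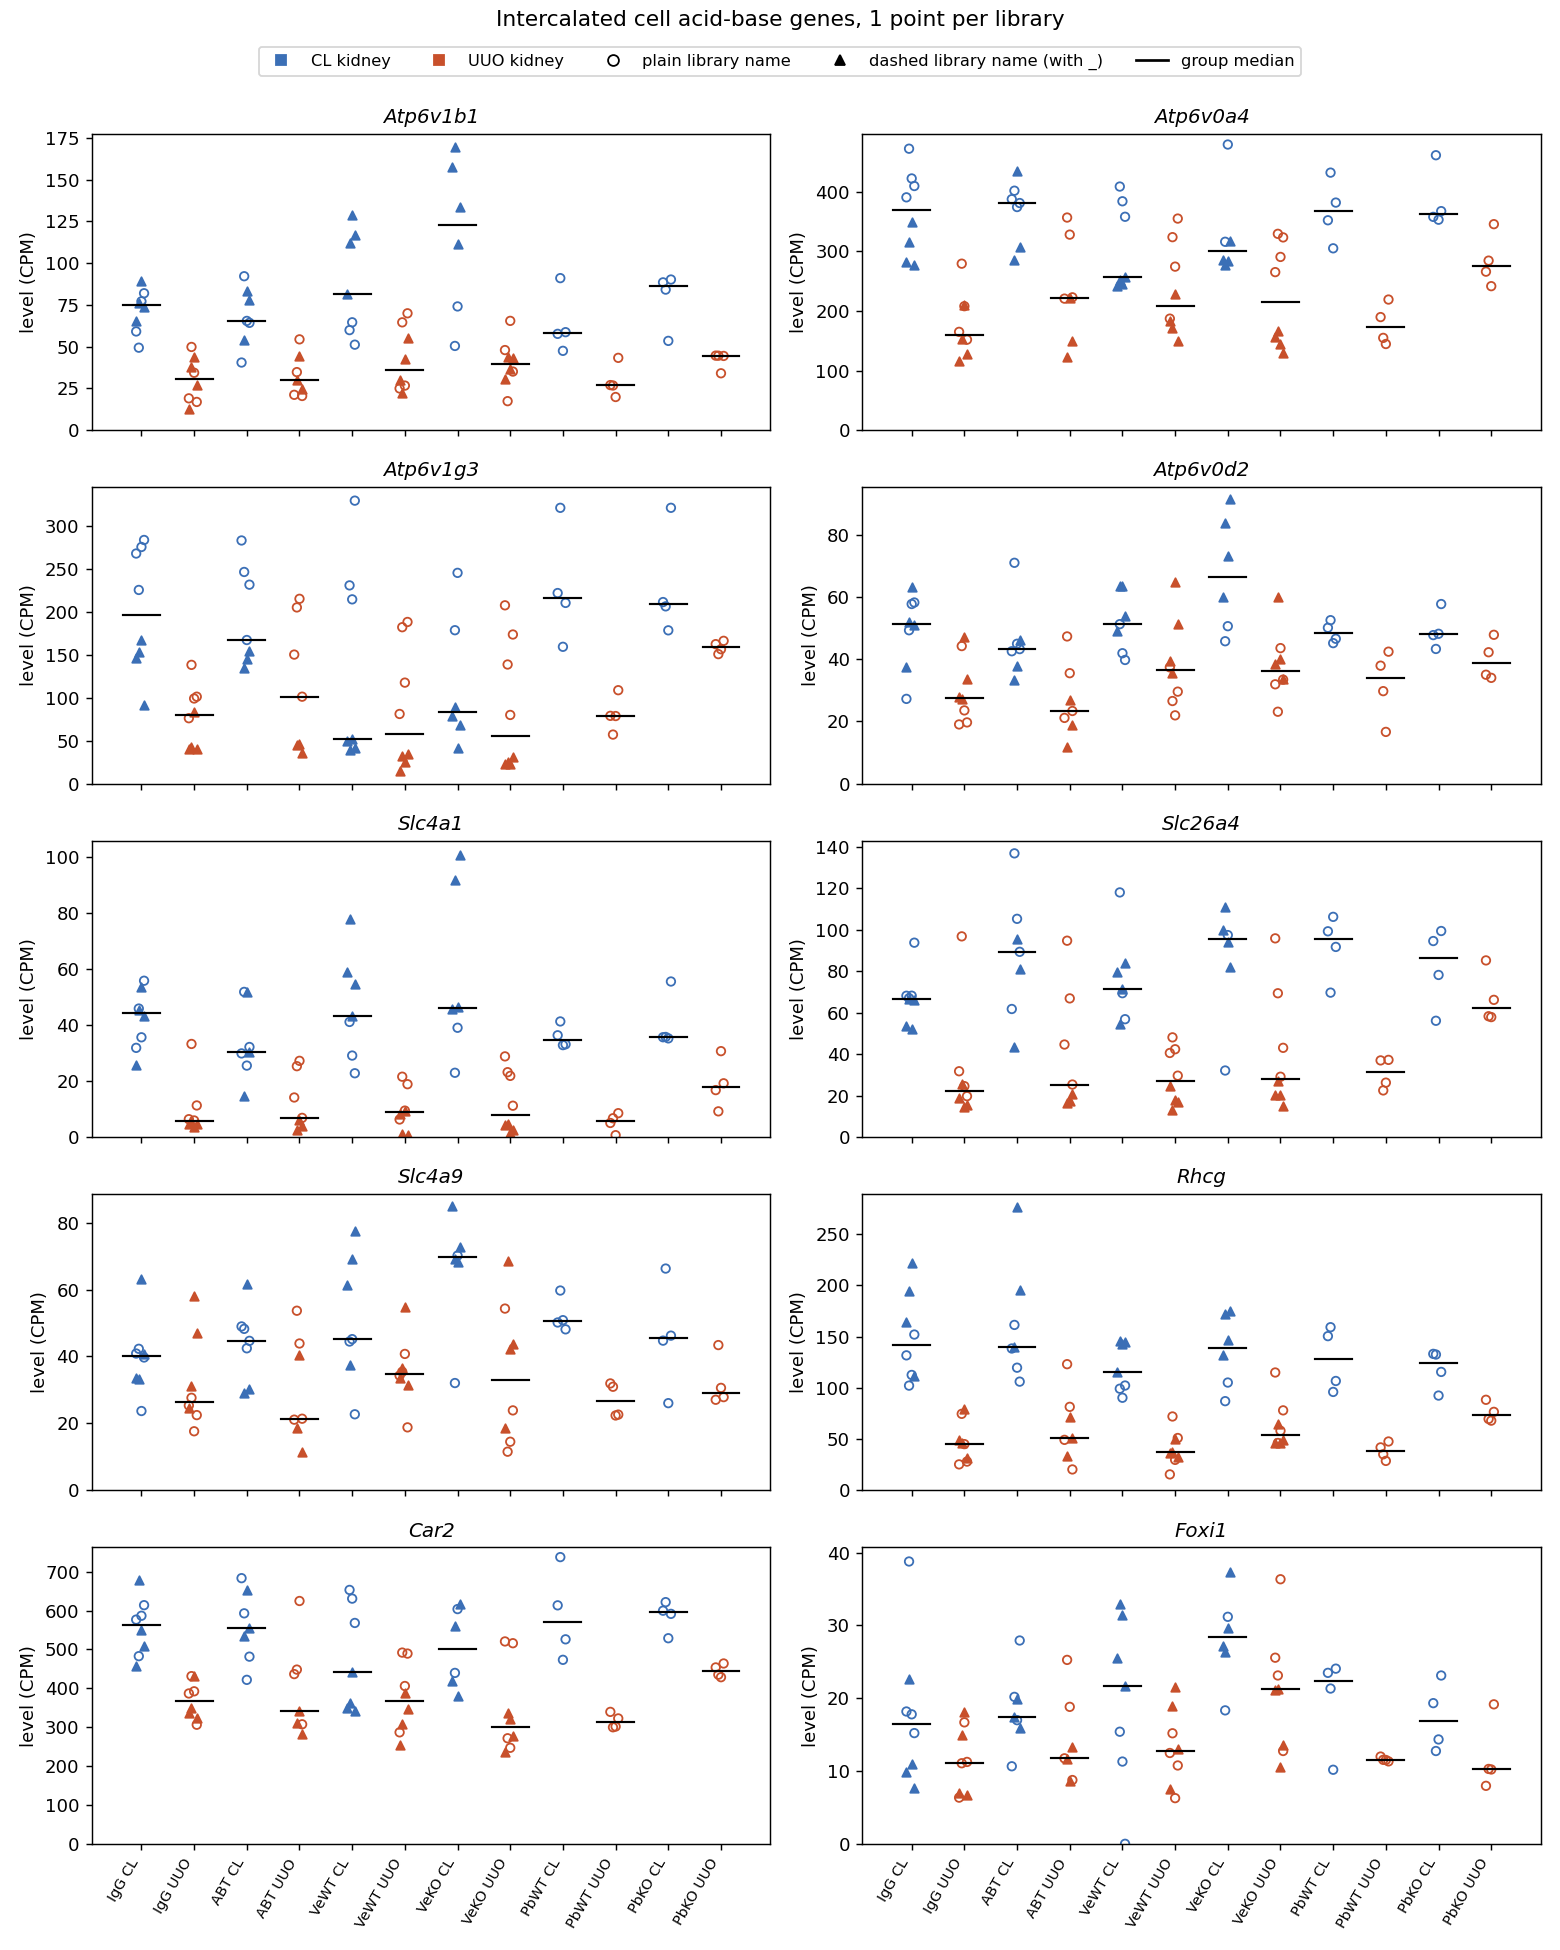
Level of each of the 10 genes in every library, in CPM (counts scaled to a common library total; linear axis from 0), for the 12 groups; bars are group medians, open circles plain and triangles dashed library names. The UUO medians lie below the CL medians of the same genotype or treatment in nearly every panel, the exception being *Atp6v1g3* in VeWT kidneys (51.9 in CL and 57.6 in UUO).

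**Figure D2:**
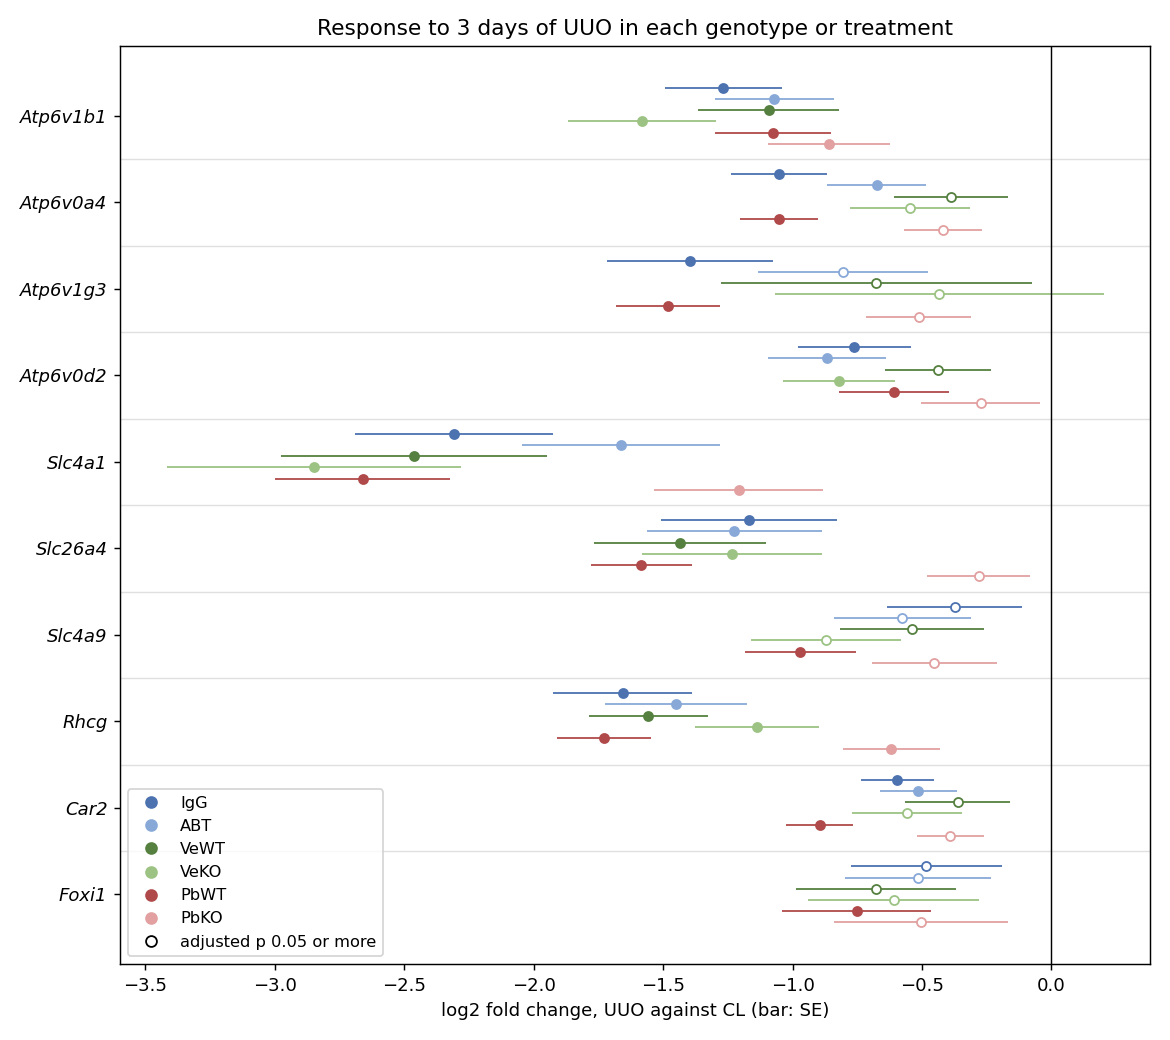
Fitted log2 fold change of UUO against CL kidneys (bars: SE) for the 10 genes in the 6 genotypes or treatments; filled points have an adjusted p under 0.05. All 60 estimates lie below 0, from -2.85 for *Slc4a1* in VeKO to -0.27 for *Atp6v0d2* in PbKO kidneys.

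The proton pump has a soluble V1 sector, which splits ATP, and a V0 sector in the membrane, through which protons pass. *Atp6v1b1* (chr6:83742990-83758855, plus strand; GRCm38, GENCODE vM21) encodes the kidney and inner ear form of the B subunit of V1. Levels are given in CPM, counts scaled with TMM to a common library total within an arm, so they are not compared between genes or arms. In IgG-treated mice *Atp6v1b1* stood at 49.3 to 89.3 CPM (median 74.9) in CL and 12.8 to 49.8 (median 30.6) in UUO kidneys, so the log2 fold change was -1.27 ± 0.23 (± gives the SE; edgeR, adjusted p = 3.36e-05). Single libraries at the edge made these ranges touch, with the highest UUO library just above the lowest CL library. In VeKO kidneys it went from 50.4 to 170 CPM (median 123) in CL to 17.3 to 65.4 (median 39.8) in UUO kidneys, which was its largest change at -1.58 ± 0.29 (adjusted p = 0.000619 by edgeR). In the *Pdgfb* arm the 4 PbWT CL libraries held 47.5, 91.0, 58.6, and 57.6 CPM and the 4 PbWT UUO libraries 19.8, 26.7, 43.3, and 27.0 CPM. The PbKO CL libraries held 53.4, 84.1, 90.1, and 88.4 CPM and the PbKO UUO libraries 34.0, 44.5, 44.4, and 44.6 CPM. CL and UUO libraries of this arm did not overlap in either genotype, with changes of -1.08 ± 0.23 in PbWT and -0.86 ± 0.24 in PbKO kidneys (adjusted p = 0.000453 and 0.0291 by edgeR).

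*Atp6v1g3* (chr1:138273738-138289462, plus strand) encodes the kidney-enriched G subunit of the V1 stalk. In IgG-treated mice its level was 91.6 to 284 CPM (median 197) in CL and 40.2 to 138 (median 79.8) in UUO kidneys, a change of -1.40 ± 0.32 (adjusted p = 0.00079 by edgeR). The PbWT CL libraries held 159, 321, 210, and 222 CPM and the PbWT UUO libraries 78.6, 57.1, 109, and 78.9 CPM. These sets were well apart, at -1.48 ± 0.20 (adjusted p = 1.76e-06 by edgeR). In the *Veptp* arm the estimates of -0.68 ± 0.60 (VeWT) and -0.43 ± 0.64 (VeKO) had about 3 times the SE of the *Pdgfb* arm and did not pass, and the level there differed by the form of the library name: VeWT CL libraries held 215 to 330 CPM in the plain and 39.2 to 51.9 CPM in the dashed form. With the form of the name as a covariate *Atp6v1g3* passed as lower in VeWT (-0.80), VeKO (-1.10), and ABT kidneys (-0.95), in addition to the 2 comparisons without it.

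*Atp6v0a4* (chr6:38048483-38124586, minus strand) encodes the kidney form of the large a subunit of V0, and its span overlaps *Tmem213* on the other strand and *D630045J12Rik* on its own, so reads there may be shared. It stood at 277 to 472 CPM (median 370) in CL and 115 to 279 (median 159) in UUO kidneys of IgG-treated mice, a change of -1.05 ± 0.18 (adjusted p = 2.49e-05 by edgeR). The change was -0.68 ± 0.19 in ABT and -1.05 ± 0.15 in PbWT kidneys, which also passed the test; the ABT call was lost in plain libraries alone and without the libraries that held both *Xist* and Y-linked counts. VeWT (-0.39 ± 0.22), VeKO (-0.55 ± 0.23), and PbKO kidneys (-0.42 ± 0.15) did not pass. With the form of the library name as a covariate, or with the replicate block given below, *Atp6v0a4* was called lower in VeWT and VeKO kidneys. Without TMM scaling it was called lower in VeKO kidneys. *Atp6v0d2* (chr4:19876841-19922605, minus strand) encodes a d subunit of V0 that is also found in osteoclasts and some macrophages. It fell in IgG (-0.76 ± 0.22), ABT (-0.87 ± 0.23), VeKO (-0.82 ± 0.22), and PbWT kidneys (-0.61 ± 0.21). Each of these calls was lost under some setting: the IgG, ABT, and PbWT calls without the libraries that held both *Xist* and Y-linked counts, the ABT and VeKO calls in plain libraries alone, the VeKO call also without TMM scaling, without the libraries numbered 3, 4, 7, and 8, or without CL replicate 5, and the PbWT call also without CL replicate 2 or 4 or UUO replicate 1 or 2. Its counts were low, at 3 to 116 per library.

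The 4 kidney-enriched subunits have counterparts that most cells use, so the ratio of the 2 counts within a library gives a measure that does not depend on scaling. Each of the 4 mean log2 ratios was lower in UUO than in CL kidneys in all 6 genotypes or treatments. The ratio of *Atp6v1b1* to *Atp6v1b2* was -1.79 ± 0.36 (SD, n = 8) in CL and -2.68 ± 0.64 (SD, n = 8) in UUO kidneys of IgG-treated mice, a difference of -0.89 (exact 2-sided permutation test, adjusted p = 0.036 over 24 tests). In VeKO kidneys it went from -1.43 ± 0.61 (SD, n = 6) to -2.72 ± 0.71 (SD, n = 8), with the same adjusted p of 0.036 by the exact test. The ratio of *Atp6v0a4* to *Atp6v0a1* differed in IgG-treated mice, at 4.06 ± 0.46 in CL and 2.51 ± 0.55 in UUO kidneys, with no overlap (exact permutation test, adjusted p = 0.00373). The ratio of *Atp6v1g3* to *Atp6v1g1* differed in IgG-treated mice by -0.99 (exact permutation test, adjusted p = 0.036). The ratio of *Atp6v0d2* to *Atp6v0d1* passed in none of the 6, with differences of -0.70 to -0.09 (exact permutation tests, adjusted p = 0.135 to 0.8). These permutations took no account of the form of the library name. Within forms more of the *Atp6v1g3* and *Atp6v0d2* ratios passed, as given below. With 4 libraries a group the smallest p the exact test allows is 0.0286, and the lowest adjusted p in the *Pdgfb* arm was 0.0857. Leaving out any 1 of 3 IgG libraries (CL replicates 1 and 3 and UUO replicate 8) left no call for *Atp6v1b1*, and any 1 of 9 VeKO libraries (CL replicates 4 to 6, UUO replicates 2, 3, and 5 to 8) left 1. For *Atp6v1g3* the call was lost without any 1 of 6 IgG libraries (CL replicates 1 to 4, UUO replicates 6 and 8), and a second appeared without ABT UUO replicate 1 or 2.

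**Figure D3:**
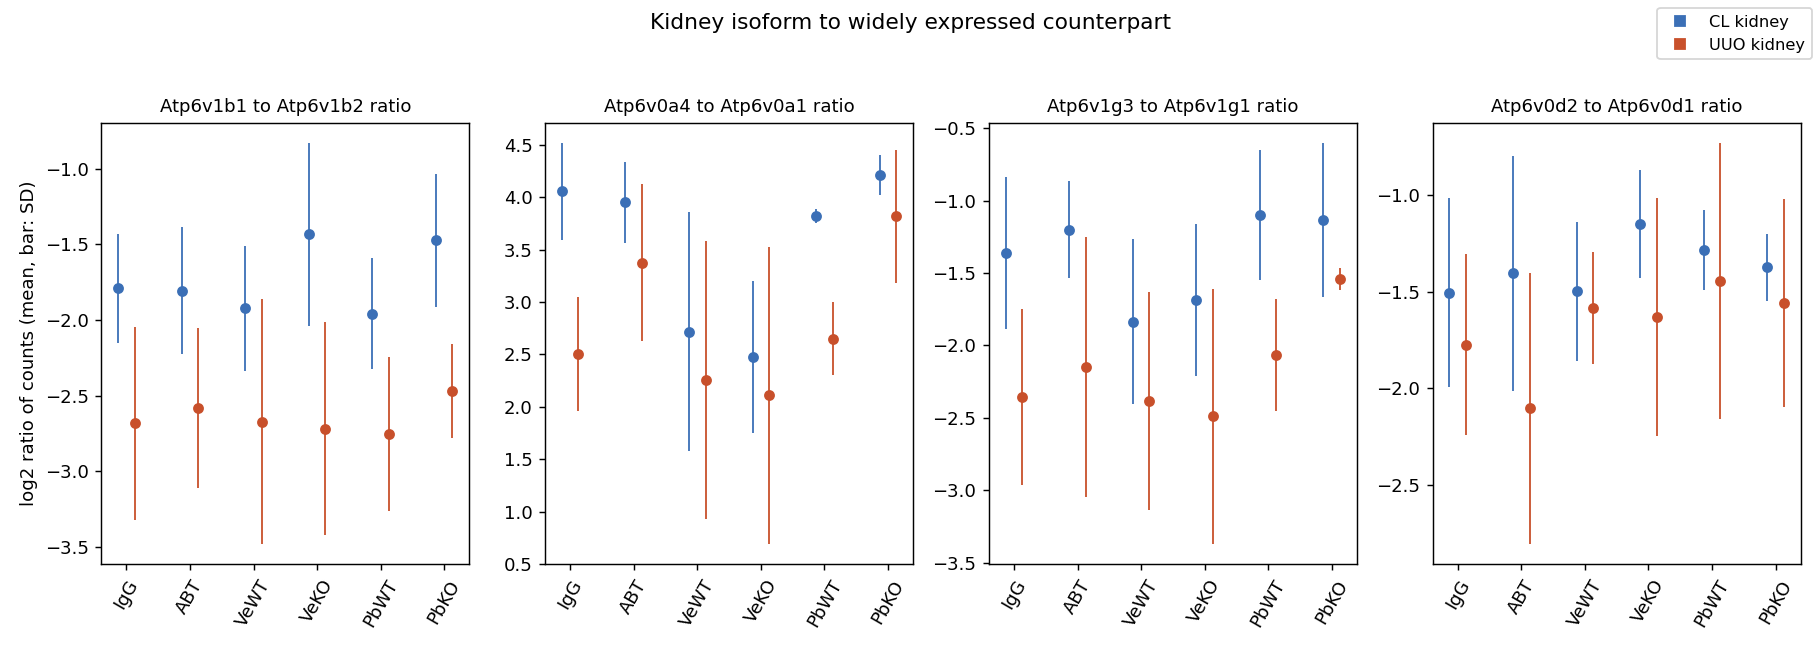
Log2 ratio of counts of each kidney-enriched subunit to its widely expressed counterpart (mean, bars: SD over libraries) in CL and UUO kidneys of the 6 genotypes or treatments. In every pair the UUO mean lies below the CL mean, from a difference of -1.55 (*Atp6v0a4*, IgG) to -0.09 (*Atp6v0d2*, VeWT).

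*Slc4a1* (chr11:102348824-102366203, minus strand) showed the largest fall of the 10 genes in each of the 6 comparisons. It encodes AE1, the chloride-bicarbonate exchanger of the basolateral membrane of type A cells, and in a longer form band 3 of red cells. In IgG-treated mice it stood at 25.7 to 55.7 CPM (median 44.3) in CL and 3.63 to 33.2 (median 5.65) in UUO kidneys, at -2.31 ± 0.38 (adjusted p = 1.1e-05 by edgeR); 1 UUO library, at 33.2 CPM, lay inside the CL range and the next highest was at 11.2. In VeWT kidneys it went from 22.7 to 77.7 CPM (median 43.2) to 0.683 to 21.5 (median 8.78), without overlap, at -2.46 ± 0.51. In VeKO kidneys it went from 22.9 to 101 CPM (median 46.0) to 1.51 to 28.8 (median 7.91), at -2.85 ± 0.57. The lowest levels rest on single counts.

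The PbWT CL libraries held 32.8, 41.2, 33.1, and 36.3 CPM of *Slc4a1* and the PbWT UUO libraries 0.639, 6.68, 8.49, and 4.99 CPM. The PbKO CL libraries held 35.2, 35.7, 55.5, and 35.6 CPM and the PbKO UUO libraries 30.6, 9.14, 19.2, and 16.7 CPM. UUO and CL libraries were apart in both genotypes, at -2.66 ± 0.34 in PbWT and -1.21 ± 0.33 in PbKO kidneys (adjusted p = 7.52e-07 and 0.0263 by edgeR). Of 7 red cell markers, 4 to 6 passed the filter, and between 0 and 3 fell with UUO; in VeWT and VeKO kidneys none fell and 1 rose, which was *Epb42*, a gene of the red cell membrane skeleton (2.35 to 2.99, tested in this arm alone and named after its values were seen). Their summed level ranged from 36.8 to 2819 CPM over single libraries, with medians of 568 in CL and 338 in UUO kidneys of IgG-treated mice and of 132 and 227 in VeKO kidneys, and at most 1 of the 7 was at 0 in a whole group. The part of red cells in the *Slc4a1* levels was not tested.

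*Slc26a4* (chr12:31519827-31559969, minus strand) encodes pendrin, the apical chloride-bicarbonate exchanger of type B cells. It stood at 43.6 to 137 CPM (median 89.3) in CL and 16.3 to 94.7 (median 25.3) in UUO kidneys of ABT-treated mice, at -1.22 ± 0.34 (adjusted p = 0.00631 by edgeR). In VeWT kidneys the ranges did not overlap, 54.5 to 118 CPM (median 71.5) in CL and 13.0 to 48.1 (median 27.0) in UUO, at -1.44 ± 0.33. The PbWT CL libraries held 106, 69.6, 91.7, and 99.2 CPM and the PbWT UUO libraries 26.2, 22.5, 37.2, and 36.9 CPM, at -1.58 ± 0.20 (adjusted p = 4.7e-07 by edgeR). The PbKO CL libraries held 78.2, 56.1, 99.4, and 94.5 CPM and the PbKO UUO libraries 57.8, 58.3, 66.2, and 85.2 CPM. Here the ranges overlapped and the change of -0.28 ± 0.20 did not pass (adjusted p = 0.47 by edgeR). The VeKO call of *Slc26a4* (-1.23 ± 0.35) was lost with edgeR's exact test and without any 1 of CL replicates 4 and 6 and UUO replicates 5, 6, and 7. In plain libraries alone the IgG, ABT, VeWT, and VeKO calls were lost, without the libraries that held both *Xist* and Y-linked counts the IgG and ABT calls, and without the libraries numbered 3, 4, 7, and 8 the VeWT and VeKO calls.

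*Slc4a9* (chr18:36528147-36556273, plus strand) encodes AE4, a basolateral transporter of type B cells. It stood at 23.7 to 63.2 CPM (median 40.2) in CL and 17.7 to 58.0 (median 26.5) in UUO kidneys of IgG-treated mice, at -0.37 ± 0.26, with wide overlap. In the main fit it passed only in PbWT kidneys, at -0.97 ± 0.21 (adjusted p = 0.000785 by edgeR), with the other 5 changes at -0.87 to -0.37. The difference between the PbKO and PbWT responses did not pass (0.52 ± 0.32, adjusted p = 0.373 by edgeR). Differences from the other arms were not tested. With the replicate block given below *Slc4a9* was also called lower in ABT, VeWT, and VeKO kidneys. With the form of the library name as a covariate it was called lower in VeKO kidneys.

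*Rhcg* (chr7:79593363-79617657, minus strand) encodes an ammonia channel of collecting duct cells, through which ammonia reaches the urine. It stood at 102 to 222 CPM (median 142) in CL and 25.4 to 79.8 (median 45.6) in UUO kidneys of IgG-treated mice, without overlap, at -1.66 ± 0.27 (adjusted p = 7.53e-06 by edgeR). In VeWT kidneys it went from 90.4 to 146 CPM (median 116) to 15.6 to 72.1 (median 37.4), again without overlap, at -1.56 ± 0.23. The PbWT CL libraries held 96, 159, 107, and 150 CPM and the PbWT UUO libraries 28.8, 35.2, 47.7, and 41.9 CPM, at -1.73 ± 0.18 (adjusted p = 5.05e-08 by edgeR). The PbKO CL libraries held 92.5, 133, 116, and 133 CPM and the PbKO UUO libraries 68.0, 69.7, 76.6, and 88.4 CPM. These sets did not overlap, but lay closer together, at -0.62 ± 0.19 (adjusted p = 0.0477 by edgeR).

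*Car2* (chr3:14886273-14900770, plus strand) encodes the cytosolic carbonic anhydrase, which proximal tubule and other collecting duct cells also express. It stood at 457 to 680 CPM (median 564) in CL and 306 to 432 (median 368) in UUO kidneys of IgG-treated mice, without overlap, at -0.60 ± 0.14 (adjusted p = 0.00106 by edgeR). Its changes ran from -0.90 ± 0.13 in PbWT to -0.36 ± 0.20 in VeWT kidneys. The ABT call (-0.51 ± 0.15) was lost in plain libraries alone and without the libraries that held both *Xist* and Y-linked counts.

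*Foxi1* (chr11:34204338-34208089, minus strand) encodes the transcription factor that switches on several of the other genes. It had 0 to 58 counts per library (median 12 in CL and 9 in UUO kidneys). It stood at 7.64 to 38.8 CPM (median 16.5) in CL and 6.34 to 18.1 (median 11.2) in UUO kidneys of IgG-treated mice, at -0.48 ± 0.29, with overlap. The single 0 was in a VeWT CL library, where 0 counts allow a level of up to 17.0 CPM (3 counts; counting error only). The PbWT CL libraries held 10.2, 21.3, 24.1, and 23.5 CPM and the PbWT UUO libraries 11.5, 11.5, 11.3, and 12.0 CPM, the only pair to pass, at -0.75 ± 0.29 (adjusted p = 0.0418 by edgeR). This call was lost when any 1 PbWT library other than CL replicate 1 was left out. In the other 5 comparisons the changes of -0.68 to -0.48, with SEs of 0.28 to 0.34, did not pass. Among dashed libraries alone *Foxi1* passed in VeWT and in VeKO kidneys. With the form of the library name as a covariate, or with the replicate block given below, it passed in VeWT kidneys.

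As FOXI1 is a forkhead factor, the stretch before the start of each gene was searched for the forkhead core TGTTTA on either strand. RefSeq sequences (GRCm38.p6) were held for 6 of the 10 genes, and the window ran from base -230 to base -31 relative to the start. Of these 6 only *Atp6v1b1* had a match, at base -98 on the coding strand, while 9.88% of 32851 windows of the same length held one. A match is a description of letters, not of binding. The windows of *Atp6v1b1* (chr6:83742787-83742986, plus strand), which fell in all 6 comparisons, and of *Rhcg* (chr7:79617688-79617887, minus strand) and *Slc26a4* (chr12:31560015-31560214, minus strand), with large falls and no match, are shown 5′ to 3′ on the coding strand with the match in capitals; no annotated exon overlaps them.
Atp6v1b1: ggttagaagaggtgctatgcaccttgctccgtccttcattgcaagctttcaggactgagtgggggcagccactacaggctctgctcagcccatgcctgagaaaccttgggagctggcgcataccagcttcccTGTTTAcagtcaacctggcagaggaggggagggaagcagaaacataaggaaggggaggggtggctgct
Rhcg: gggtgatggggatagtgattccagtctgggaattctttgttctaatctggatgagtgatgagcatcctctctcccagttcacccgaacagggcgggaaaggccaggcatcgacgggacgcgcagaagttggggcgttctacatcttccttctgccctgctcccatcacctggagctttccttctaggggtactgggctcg
Slc26a4: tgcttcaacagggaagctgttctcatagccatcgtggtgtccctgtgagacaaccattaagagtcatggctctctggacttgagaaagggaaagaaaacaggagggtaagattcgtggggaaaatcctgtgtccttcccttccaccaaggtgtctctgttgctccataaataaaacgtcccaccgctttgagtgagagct

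The second question was whether activation of TIE2 changed these genes. None of the 10 genes differed between ABT- and IgG-treated mice in UUO or CL kidneys or in the response to UUO, where 0% of all genes did in each case (edgeR; DESeq2 also called none of the 10, and edgeR's exact test, which was run on UUO and CL kidneys, none of the 8 and 10 it tested). At an unadjusted p under 0.05 there was 1 of 10 in UUO kidneys, *Atp6v0a4* at 0.39 ± 0.19, and 0 in the other comparisons. Likewise none differed between VeKO and VeWT kidneys in UUO, in CL, or in the response (0% of all genes each; DESeq2 called none, and the exact test none of the 9 and 10 it tested), with 1 of 10 at an unadjusted p under 0.05 in UUO kidneys, *Rhcg* at 0.61 ± 0.23, and 0 in the others. Libraries numbered 3, 4, 7, and 8 in this arm carry one genotype in CL and the other in UUO kidneys; the labels do not say whether a number marks 1 mouse, in which case some genotype labels would be wrong and this comparison would mix genotypes. Without these libraries none of the 10 genes, and 0% of all genes, differed either. In UUO kidneys the estimates ran from -0.25 to 0.54 for ABT against IgG and from -0.12 to 0.61 for VeKO against VeWT.

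The third question was whether these genes differed between PbKO and PbWT kidneys. In UUO kidneys 6 of the 10 genes were higher in PbKO than in PbWT mice, against 12% of all genes. These were *Slc4a1* (1.59 ± 0.38), *Slc26a4* (1.15 ± 0.20), *Rhcg* (0.99 ± 0.19), *Atp6v1g3* (0.97 ± 0.20), *Atp6v0a4* (0.69 ± 0.15), and *Car2* (0.50 ± 0.13), with adjusted p between 0.000186 and 0.00765 by edgeR, and in each the 4 PbKO libraries lay above the 4 PbWT libraries. For *Slc26a4* these were 57.8 to 85.2 CPM above 22.5 to 37.2 CPM, and for *Car2* 429 to 464 above 300 to 339 CPM. How many of all genes tested were apart in this way was not counted. *Atp6v1b1* (0.52 ± 0.23), *Atp6v0d2* (0.35 ± 0.22), *Slc4a9* (0.27 ± 0.23), and *Foxi1* (0.09 ± 0.31) did not pass. In CL kidneys none of the 10 differed (0% of all genes; none at an unadjusted p under 0.05, and none by DESeq2 or the exact test). The response to UUO differed between the genotypes for *Slc26a4* (1.30 ± 0.28, adjusted p = 0.00371 by edgeR), *Rhcg* (1.11 ± 0.26, adjusted p = 0.0076), and *Atp6v1g3* (0.97 ± 0.28, adjusted p = 0.0323), 3 of 10 genes against 6.66% of all genes that were higher in this test.

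**Figure D4:**
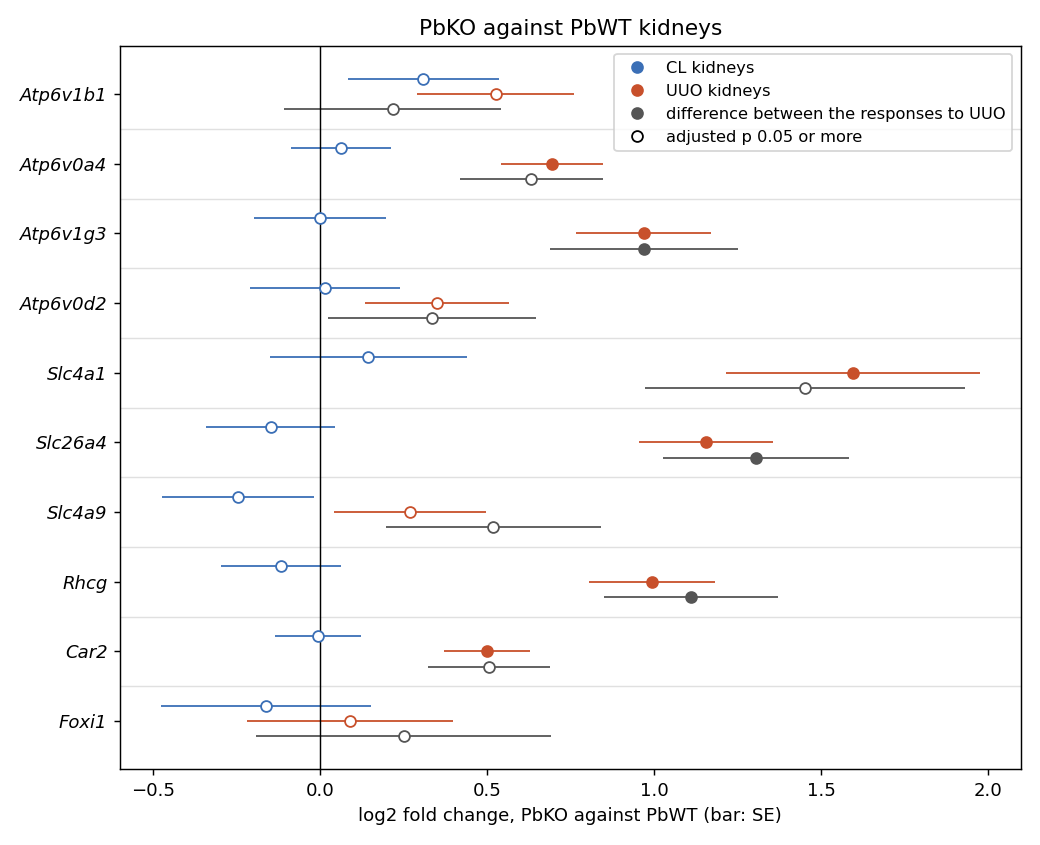
Fitted log2 fold change of PbKO against PbWT (bars: SE) in CL kidneys, in UUO kidneys, and as the difference between the responses to UUO; filled points have an adjusted p under 0.05. In UUO kidneys 6 genes are filled, all above 0 and led by *Slc4a1* at 1.59, while the CL estimates lie between -0.25 and 0.31.

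Other cell markers moved with this difference. In PbKO against PbWT UUO kidneys 6 of 6 proximal tubule markers and 5 of 6 loop and distal convoluted tubule markers were higher. So were 6 of 12 acid-base genes of other segments, 2 of 10 principal cell markers, 3 of 7 other intercalated cell genes, and 9 of 16 pump subunits of wide expression. Of 7 macrophage markers 4 were lower and of 5 fibroblast markers also 4, as were 2 of 5 endothelial markers (summed level 92.3 to 156 CPM in PbKO and 149 to 207 CPM in PbWT UUO kidneys). Of the 4 red cell markers tested 3 were higher, with a summed level of 577 to 855 CPM in PbKO and 334 to 442 CPM in PbWT UUO kidneys. The summed macrophage level was 165 to 205 CPM in PbKO and 255 to 396 CPM in PbWT UUO kidneys, against 96.6 to 110 and 82.5 to 114 CPM in CL kidneys. The difference between responses was called higher for 5 of 6 proximal tubule and 4 of 6 loop and distal convoluted tubule markers. It was also higher for 4 of 12 acid-base genes of other segments, 2 of 7 other intercalated cell genes, 2 of 16 pump subunits, and 1 of 10 principal cell markers. For 1 of 7 macrophage and 1 of 5 fibroblast markers it was lower. All 4 PbKO UUO libraries held counts of both *Xist* (58 to 252) and Y-linked genes (31 to 123), so none would remain without such libraries. Their part in the result was not tested. Without TMM scaling the median of all genes for PbKO against PbWT in UUO kidneys shifted from -0.02 to -0.29 and the share of lower genes among all calls rose from 35.3% to 79.2%; *Slc4a1*, *Slc26a4*, *Rhcg*, *Atp6v1g3*, and *Atp6v0a4* were still called higher. For the difference between responses only *Slc26a4* was still called, and the share of lower genes went from 22.1% to 68.2%.

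The response to UUO was also read within each form of library name. In the dashed libraries alone, 8 of 10 genes fell in IgG (15.4% of all genes), 8 in ABT (13%), 7 in VeWT (11.9%), and 9 in VeKO kidneys (10.6%). In the plain libraries alone, 7 fell in IgG (12.6%), 2 in ABT (4.37%), 1 of 9 tested in VeWT (6.7%), and none of 9 in VeKO kidneys (0% of all genes). With the form as a covariate 8 fell in IgG (21.4% of all genes), 8 in ABT (16.8%), 8 in VeWT (17.3%), and 9 in VeKO kidneys (10.8%). A term for the difference between the forms, added after the data were seen, called 2 of the 10 genes in the *Veptp* arm, with larger falls in dashed libraries for *Slc4a1* (-2.92 ± 0.51, adjusted p = 0.00206 by edgeR) and *Slc26a4* (-1.40 ± 0.31, adjusted p = 0.0313), where 0.269% of all genes were called in that direction. In the ABTAA arm it called none (0% of all genes), with estimates of -1.58 ± 0.48 for *Slc4a1* and -0.93 ± 0.37 for *Slc26a4*. In VeKO kidneys the median of *Slc4a1* went from 69.0 CPM in CL to 3.35 CPM in UUO in dashed libraries, and from 30.9 to 22.5 CPM in plain ones; that of *Slc26a4* went from 97.0 to 20.4 and from 64.7 to 56.2 CPM. The plain VeKO CL medians rest on 2 libraries, which held 97.4 and 32.1 CPM of *Slc26a4* and 39.0 and 22.9 CPM of *Slc4a1*; the lower in each case is replicate 2, the library with high *Havcr1*, and without it the *Slc26a4* level in CL would be 97.4 CPM. The depth differs between the forms in this arm as given above, and its part was not tested.

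**Figure D5:**
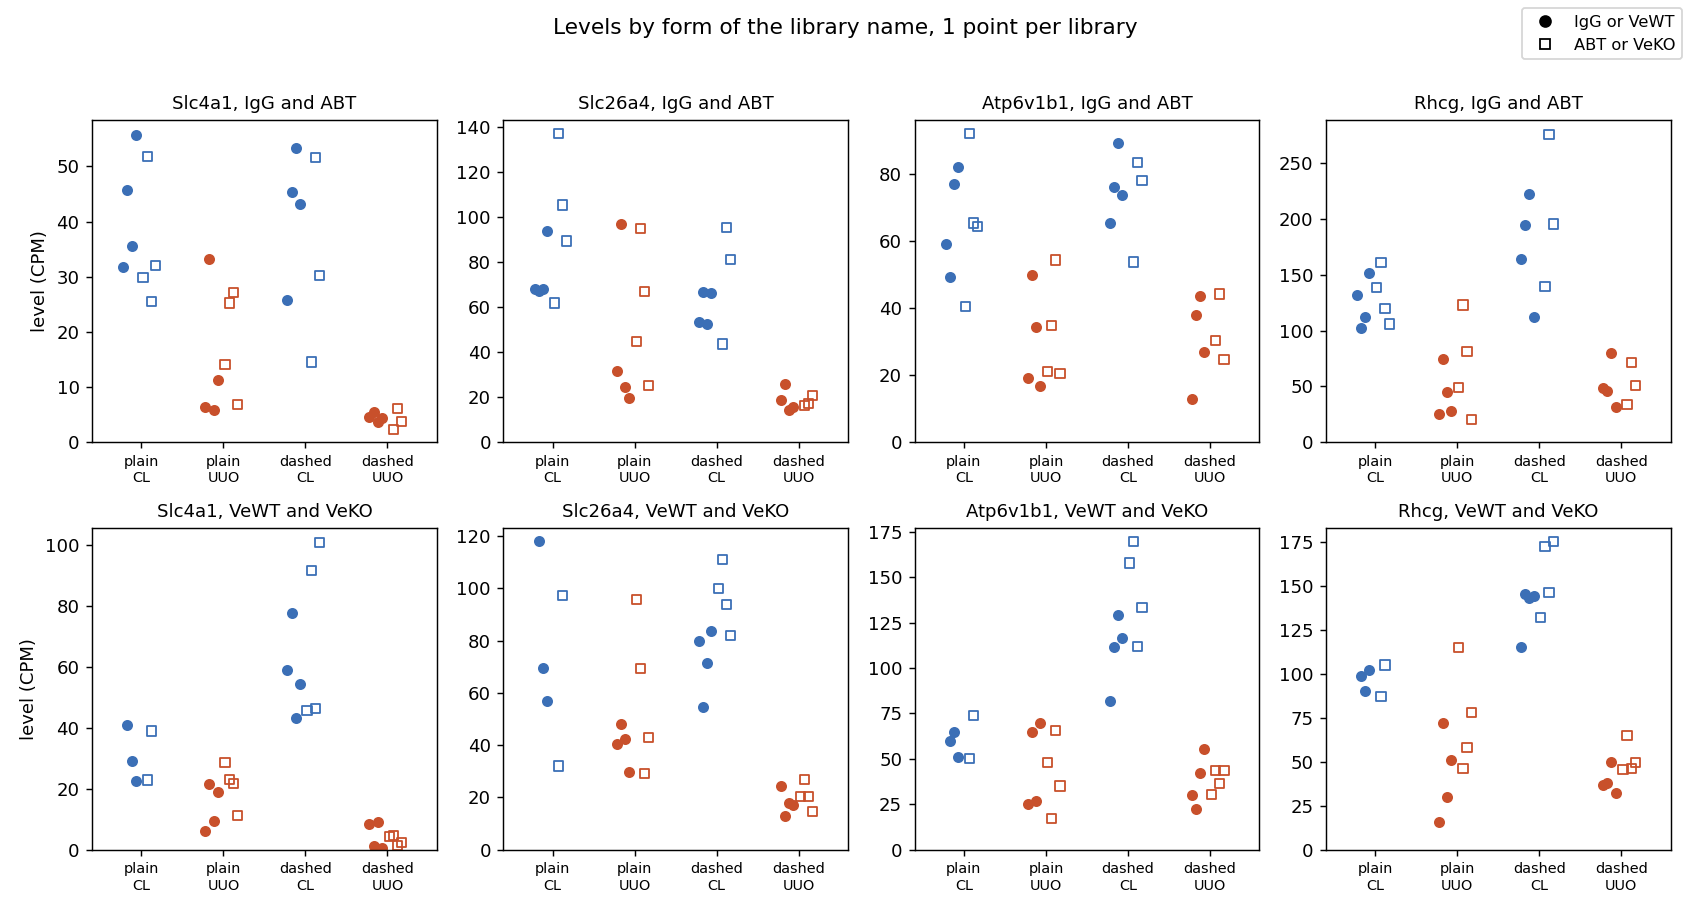
Levels of *Slc4a1*, *Slc26a4*, *Atp6v1b1*, and *Rhcg* in CPM (linear axis from 0), 1 point per library, split by the form of the library name; filled circles are IgG or VeWT and open squares ABT or VeKO. In VeWT and VeKO kidneys the dashed UUO libraries of *Slc4a1* lie between 0.683 and 9.26 CPM, below their CL libraries at 43.2 to 101 CPM, while the plain ones overlap in VeKO kidneys (22.9 to 39.0 CPM in CL and 11.2 to 28.8 CPM in UUO) and not in VeWT kidneys (22.7 to 41.0 and 6.24 to 21.5 CPM).

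Without the 24 libraries that held both *Xist* and Y-linked counts, 6 of 10 genes fell in IgG (12% of all genes), 3 in ABT (7.71%), 4 in VeWT (5.76%), 6 in VeKO (3.59%), and 7 in PbWT kidneys (10.4%), the last from 2 libraries a group. Numbers in the library names tie 3 CL kidneys of ABT-treated mice to 3 UUO kidneys, and with the number as a replicate block 9 of 10 genes fell (16.8% of all genes), *Atp6v1g3* and *Slc4a9* in addition to the 7 without it. Libraries without a shared number formed 1 block per form of name, so that this block also takes up the form.

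Other genes of intercalated cells fell as well. Of 14 such genes 5 to 8 passed the filter in an arm, and 2 to 5 of them fell in each comparison, with none higher. *Oxgr1*, the 2-oxoglutarate receptor of type B cells, and *Rhbg*, a basolateral ammonia transporter, each fell in 5 of 6 comparisons (median -1.97 and -1.78), *Atp6v1c2*, a kidney-enriched C subunit of the pump, in 4 (-1.60), and *Aqp6*, an aquaporin of type A cell vesicles, in 3 (-0.84). *Tfcp2l1*, a transcription factor of collecting duct cells, passed in none (median -0.18). Of 16 pump subunits that most cells use, 0 to 12 fell and none rose. *Atp6v1a*, the catalytic subunit, fell in 4 of 6 comparisons (-0.66), as did *Atp6v1e1* (-0.49) and *Atp6v1d* (-0.46); *Atp6v1b2* (-0.31), *Atp6v0d1* (-0.35), and *Atp6v1g1* (-0.16) fell in 2 each, and *Atp6v0a1* (0.07), *Atp6v0b* (0.01), and *Atp6v1c1* (0.14) passed in none.

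The fall was not confined to intercalated cell genes. Of 12 acid-base genes of other segments 3 to 8 fell, led by the membrane carbonic anhydrase *Car14* (6 of 6 comparisons, median -1.51), *Car4* (4, -1.14), and *Pck1* (4, -1.04), an enzyme of glucose synthesis; *Slc4a7*, a sodium-bicarbonate cotransporter, had a median of 0.45 and rose in 1. *Slc4a2*, a chloride-bicarbonate exchanger, passed in none (median 0.10). Of 10 principal cell markers 2 to 5 fell: *Aqp3* (5 comparisons, -1.50), *Kcnj1* (6, -1.45), and *Scnn1a* (5, -1.21), with *Scnn1b* (1, -0.33) near *Scnn1g* (-0.32) and *Gata3* (-0.11), which passed in none. Their summed level had medians of 1020 CPM in CL and 470 CPM in UUO kidneys of IgG-treated mice and of 1334 and 623 CPM in VeKO kidneys. Of 6 loop and distal convoluted tubule markers 2 to 5 fell, among them *Calb1* (5, -2.26), *Slc12a1* (6, -1.68), and *Slc12a3* (6, -1.61), and of 6 proximal tubule markers 2 to 6, among them *Slc22a6* (4, -1.24).

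Of 7 macrophage markers 4 to 7 rose with UUO, such as *Cd68* (6 of 6 comparisons, median 2.38) and *C1qc* (6, 2.19), while *Csf1r* rose in 2 (0.31). Of 5 fibroblast markers 5 rose in IgG, ABT, VeWT, and PbWT kidneys and 2 in VeKO and PbKO kidneys; *Col1a1* rose in 6 comparisons (3.39) and *Pdgfra* in 4 (0.95). The summed macrophage level in IgG-treated mice was 90.6 to 137 CPM in CL and 244 to 388 CPM in UUO kidneys. Of 5 endothelial markers at most 2 rose and at most 1 fell in a comparison, and of 4 podocyte markers at most 1 rose and at most 2 fell. The part of these shifts in cell makeup in the levels of the 10 genes was not tested.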

How the data were processed

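Whole-kidney RNA of 75 libraries was sequenced with a UMI-based method. Per the labels and the study's methods, the authors mapped reads with STAR 2.7.3a to mm10, removed duplicates with UMI-tools 1.1.4, and counted genes with featureCounts (Subread 1.4.6-p5); the deposited values are counts per gene without normalization. The annotation release is not given in the sources used here, and gene positions are from GENCODE vM21 (GRCm38).

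Counts were analysed with edgeR 4.0.16 (R 4.3.3): TMM, the filter by group, and glmQLFTest, with 1 fit per arm over its 4 groups and Benjamini-Hochberg adjustment over all genes tested (threshold 0.05). Alternatives were DESeq2 1.42.0 and the exact test of edgeR, the one that the authors used. SE is the fold change divided by the square root of F. CPM relate to counts on tested genes after TMM. Ratios used a pseudocount of 0.5. The procedure was tested on simulated data. No 2 libraries of a group agreed within sampling noise (lowest chi-square per degree of freedom 1.54). In the study the kidney of the other side was the internal control of the same mouse, but the labels name no animals. The main fits and the permutation tests therefore ignore this pairing and treat CL and UUO libraries as independent. Their p-values measure the spread between libraries.

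The 10 genes and all lists were chosen with earlier results of these data known. Named were all 10 genes, 4 counterparts, and up to 3 lowest and 3 highest of each list by median change among genes tested in all 3 arms (not all of the list genes are printed, and 1 is not reported here).

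Shared numbers in library names paired 3 ABT CL and UUO libraries: the correlation of their deviations from the group mean was 0.387, 0.199, and 0.16, and on average -0.122 for libraries with unlike numbers. Deviations within a group cancel out, which makes this average negative when like numbers correlate. It is therefore no independent baseline.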

Additional observations from a re-analysis of the deposited data

Results flagged for a closer look

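In 120 sets of libraries (10 genes in 12 groups) a single library stood far from the rest of its group 13 times; about 1 in 20 sets is expected to do so by chance. In IgG UUO replicate 2, *Slc4a1* stood at 33.2 CPM (next 11.2) and *Slc26a4* at 96.8 CPM (next 31.7). In VeKO CL replicate 2, *Slc26a4* and *Slc4a9* both stood at 32.1 CPM, from 7 counts each, below the next at 82.1 and 68.2; this is the library with high *Havcr1*. In PbKO kidneys *Atp6v1b1* was low in CL replicate 1 (53.4 CPM) and in UUO replicate 1 (34 CPM, from 10 counts), *Atp6v0a4* was high in CL replicate 2 (461 CPM), and *Slc4a1* was high in CL replicate 3 (55.5 CPM). The others were *Atp6v0a4* in VeKO CL replicate 1 (479 CPM), *Atp6v0d2* in ABT CL replicate 2 (71.1 CPM), *Slc26a4* in IgG CL replicate 3 (93.8 CPM), *Slc4a9* in IgG CL replicate 5 (63.2 CPM), and *Rhcg* in VeKO UUO replicate 4 (115 CPM).

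The response to UUO differed between PbKO and PbWT kidneys for *Slc26a4* by 1.3, for *Rhcg* by 1.11, and for *Atp6v1g3* by 0.97 on the log2 scale, by a test of the difference itself. In the *Veptp* arm it differed between dashed and plain libraries for *Slc4a1* by -2.92 and for *Slc26a4* by -1.4.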

How the results depend on the processing

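Under all alternatives the 10 genes kept a lower estimate in UUO kidneys (1967 of 1967 values). Most of these values come from refits with 1 library left out. That library was often from a group outside the comparison, so the sign could hardly change. The number of the 10 that fell did not keep its size. It was 2 in ABT, 1 in VeWT, and 0 in VeKO kidneys for plain libraries alone, 7 in VeWT and 9 in VeKO for dashed libraries alone, and 8 and 9 with the form as a covariate (17.3% and 10.8% of all genes). Without the libraries with *Xist* and Y-linked counts, an alternative chosen after seeing the data, it was 3 in ABT kidneys (7.71% of all genes). Without TMM it was 1 in PbKO kidneys, where 152 of 10923 genes tested fell. In the *Veptp* arm 7 of 8 pairs of libraries with a shared number correlated at 0.109 to 0.426 and the eighth at 0.0581. The average for unlike numbers was -0.0333, which the centring on group means makes negative when like numbers correlate. Of the 8 pairs, 4 carry opposite genotypes. Since 1 pair was under 0.1 and the labels give no shared animal, the pairing was not settled. With the numbers as a replicate block (and 1 block per form for the rest, so that the block takes up the form too) it was 10 in VeWT and 8 in VeKO kidneys, against 15.5% and 10.3% of all genes, and without numbers 3, 4, 7, and 8 it was 2 and 0, against 2.71% and 0.127%. The block brought no call of any of the 10 genes in the comparisons that had none.

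The difference between responses in PbKO and PbWT kidneys called 1 of the 10 genes without TMM, where 312 of 10923 genes tested were higher. With DESeq2 it called 6, and the share of all genes in that run is not given here. With labels permuted within forms the ratio of *Atp6v1g3* passed in 2 and that of *Atp6v0d2* in 1 of 6. Without TMM the estimate of *Foxi1* for PbKO against PbWT in UUO kidneys was -0.18, and the differences between responses were -0.09 for *Atp6v1b1* and -0.05 for *Foxi1*; with 1 library left out the 2 *Foxi1* estimates ran from -0.33 to 0.31 and from -0.17 to 0.49, below 0 without PbKO UUO replicate 3. The causes were not tested.

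With 1 library left out, the fallen genes numbered 8 in IgG, 7 to 9 in ABT, 4 to 5 in VeWT, 4 to 7 in VeKO, 8 to 10 in PbWT, and 0 to 4 in PbKO kidneys. With all libraries 18.2%, 12.5%, 8.38%, 3.47%, 19.4%, and 2.42% of all genes fell, in the same order. The shares in the single runs are not listed here. In PbKO kidneys 0 remained without CL replicate 3, UUO replicate 2, or UUO replicate 4, and 1 without CL replicate 2, CL replicate 4, or UUO replicate 3. PbKO against PbWT in UUO kidneys gave 6 to 7 genes and the difference between responses 2 to 5, with 5 without PbWT CL replicate 1 or UUO replicate 3. With all libraries 12% and 6.66% of all genes were higher in these 2 tests. The ratio of *Atp6v1b1* passed in 0 to 3 and that of *Atp6v1g3* in 0 to 2 of 6. Counts were low for *Foxi1* (0 to 58 per library) and, in UUO kidneys, for *Slc4a1* (1 to 22).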
